A study of Mus musculus with 5 samples.

Results

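The 10 cytosolic and mitochondrial heat shock genes described here were taken by gene symbol from a table of 32285 genes, measured with RNA-seq in 2-cell mouse embryos. They are Hspa1a, Hspa1b, Hspa8, Hspa14, Hsp90aa1, Hsp90ab1, Hsf1, Hsf2, Hspd1 and Hspe1. All 10 symbols were found and all 10 passed the filter on low values, which asked for a signal of 1 or more in 2 or more of the 5 libraries and kept 12734 genes. Oocytes from hormone-primed females aged 6 to 9 weeks were fertilised in vitro with sperm of males aged 12 to 16 weeks. Fertilised eggs with both pronuclei were then kept for 24 h in KSOM, an embryo culture medium, that held either 25 nM PNMC (3 libraries) or an equal volume of the solvent DMSO (2 control libraries). The labels name neither the mouse strain nor a genotype, do not spell out PNMC, and do not say how many embryos went into a library or whether libraries came from separate cultures, so p-values here rest on a spread between libraries that may be technical.

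Heat shock proteins are molecular chaperones that hold unfolded proteins in solution and help them fold. HSP70 proteins bind short exposed stretches of a client and are driven by J-domain co-chaperones, HSP90 proteins act late on kinases, receptors and other signalling proteins, and the mitochondrial matrix has a separate folding chamber built from the products of Hspd1 (HSP60) and its lid Hspe1 (HSP10). On stress, the transcription factor HSF1 forms trimers and binds heat shock elements, inverted repeats of the letters GAA and TTC upstream of its target genes. In mouse embryos the inducible HSP70 genes are among the earliest genes transcribed from the zygotic genome, and HSF1 is a maternal factor that the early embryo needs.

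Upstream sequences are shown because, among the 6 members with a promoter window, they set apart those with heat shock element letters close to the start site. RefSeq promoter windows on GRCm38.p6, from 250 bases before to 50 bases after a start site, were matched by symbol for 6 of the 10 genes. Hspa8, Hsp90aa1, Hsp90ab1 and Hsf1 had no entry. The words GAANNTTC and TTCNNGAA, each of which reads the same on both strands and which may overlap each other, were searched. At least 1 of them was found for 4 of the 6 genes (Hspa1a, Hspa1b, Hspd1 and Hspe1) and in none of the windows of Hspa14 and Hsf2. Counted by window this was 4 of 7, against 15.1% of all 32851 promoter windows of the same length, and 17.0% of all genes with a window had at least 1 match. The 4 matched windows are not independent, so these counts include nearly the same DNA more than once. Those of Hspa1a and Hspa1b were 98.7% identical, and those of Hspd1 and Hspe1 shared 285 bases. The bases upstream of the start sites are printed 5′ to 3′ along each gene's own strand, with the matched words in capitals. Hspa1a lies on the minus strand at chr17:34972157-34972406 and Hspa1b on the minus strand at chr17:34959239-34959488. These stretches were identical at 247 of 250 bases. Each held GAAGATTC as its only match, with the first base 104 bases upstream of the start site.
Hspa1a: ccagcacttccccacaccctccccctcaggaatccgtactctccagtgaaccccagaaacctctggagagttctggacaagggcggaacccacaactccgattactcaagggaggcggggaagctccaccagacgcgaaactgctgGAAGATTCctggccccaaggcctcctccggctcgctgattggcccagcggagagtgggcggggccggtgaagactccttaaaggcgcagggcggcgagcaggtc
Hspa1b: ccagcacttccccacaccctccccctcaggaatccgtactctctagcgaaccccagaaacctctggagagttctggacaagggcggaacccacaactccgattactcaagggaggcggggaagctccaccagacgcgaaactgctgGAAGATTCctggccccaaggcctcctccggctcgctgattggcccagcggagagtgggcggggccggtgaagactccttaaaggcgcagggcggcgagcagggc

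Hspd1 and Hspe1 are divergent neighbours, and the second set shows the DNA they share. The start site of Hspe1 on the plus strand lay 216 bases from a start site of Hspd1 on the minus strand. The 215 bases between them, at chr1:55087933-55088147 and printed on the plus strand, held 3 overlapping words that formed a run of 18 bases with 4 alternating TTC and GAA units. Its first base lay 89 bases upstream of the Hspe1 start. At least 3 such alternating units, each 2 bases from the next, were found in 0.603% of all promoter windows. A second RefSeq window of Hspd1, from another start site, held no match. Matches of letters describe these windows only, and binding was not measured here.
Hspd1-Hspe1: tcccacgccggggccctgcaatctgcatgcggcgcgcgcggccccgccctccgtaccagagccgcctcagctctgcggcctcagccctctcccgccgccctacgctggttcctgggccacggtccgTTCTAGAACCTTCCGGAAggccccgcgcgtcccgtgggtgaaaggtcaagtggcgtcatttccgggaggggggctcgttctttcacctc

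The libraries carried the markers of their label. All 10 oocyte and 2-cell markers were present in every library, the lowest value being 25.2, and they summed to between 14045 and 14283 in controls and between 15077 and 15535 after PNMC. Of the cumulus cell markers 3 of 12 were at 0 throughout, among them Foxl2 and Ptx3, and the list summed to 26.3 to 29.9 in controls and 20.4 to 29.2 after PNMC, mostly from Amhr2. Of the sperm markers 4 of 10 were at 0, among them Prm1 and Tnp2 (sums 7.08 to 10.8 and 6.95 to 9.11). Most of the sperm signal came from Prm2, at 3.91 to 5.79 over the 5 libraries, and Oaz3, at 1.87 to 6.60. Of the oviduct markers 3 of 8 were at 0, among them Pax8 (sums 60.3 to 62.7 and 49.9 to 91.2, mostly Epcam). Blood markers, of which 3 of 11 were at 0, summed to 16.1 to 28.5 in controls and 12.8 to 13.7 after PNMC. Most of the blood signal came from Hba-a1, at 4.57 to 8.29 over the 5 libraries, and Cd74. Cd74 was at 5.38 in control library 1, 12.8 in control library 2 and 5.06, 3.21 and 5.38 after PNMC. The part of blood markers in the results was not tested. The values have no stated unit or depth. Library sums ran from 446010 to 454548, and control library 2 listed the most genes above 0, at 18595 against 17408 to 17635 in the others. In bulk libraries such as these, fewer cells of a type and less RNA per cell cannot be told apart.

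None of the 10 heat shock genes passed limma's moderated test at an adjusted p under 0.05, where 0% of the 12734 genes tested did. Before adjustment, 0 of the 10 had a limma p under 0.05, against 4.99% of all genes. Mean log2 values were higher after PNMC in 5 genes and lower in 5, against 5487 higher and 7247 lower of all tested genes. The median log2(value + 1) change was -0.028, against -0.0475 over all tested genes. The PNMC and control values did not overlap for 2 of the 10 genes, Hspa1a (higher) and Hsf2 (lower), against 19.9% of all tested genes (7.97% higher and 11.9% lower), so the share among the members was near the background. Together the 10 genes held between 0.156% and 0.175% of each library's summed signal.

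**Figure D1:**
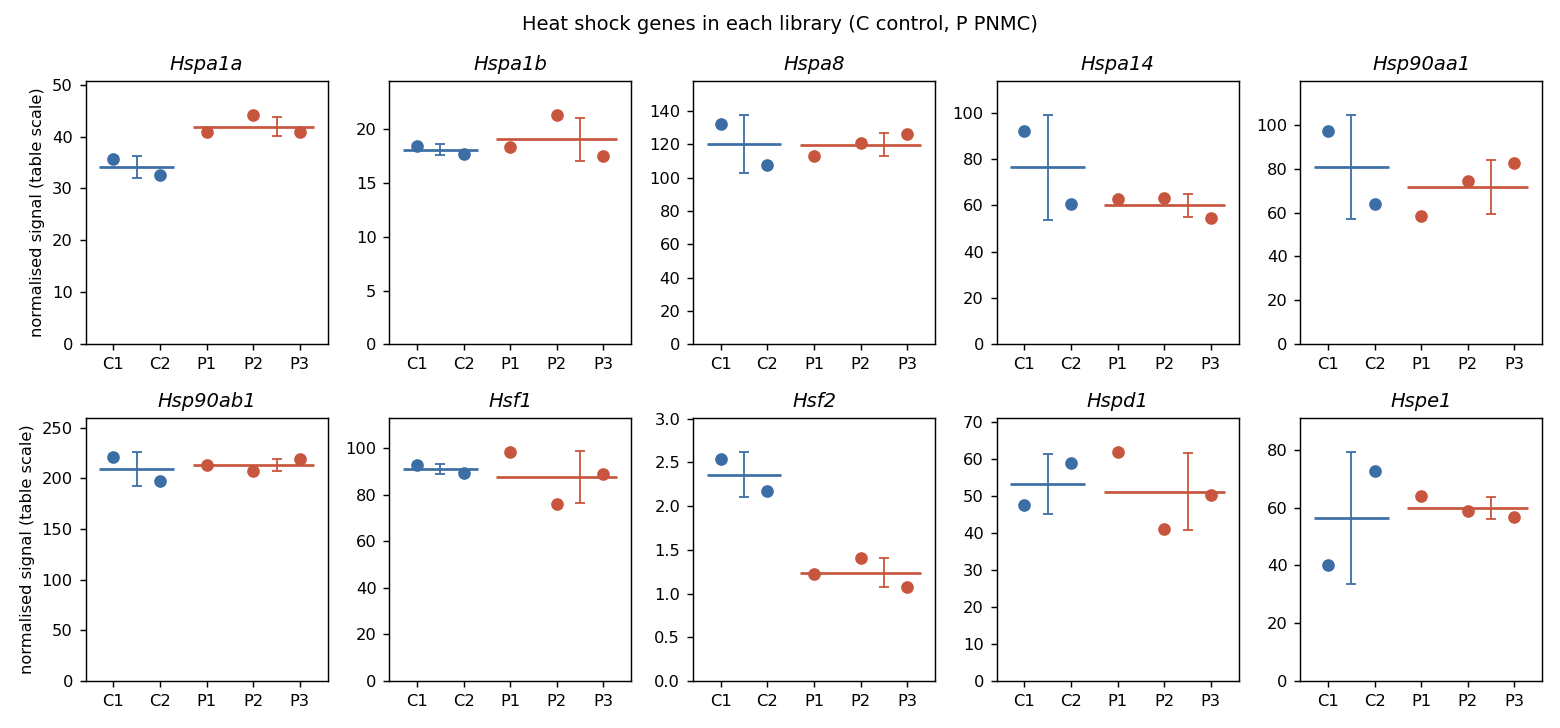
Normalised signal (vertical axes, the table's own scale, each from 0) of the 10 heat shock genes in the control libraries (C1, C2, blue) and the PNMC libraries (P1 to P3, red); horizontal lines are group means and error bars are SDs (n = 2 and n = 3). Hspa1a lay between 40.9 and 44.1 in the PNMC libraries and at 35.6 and 32.6 in the controls, Hsf2 lay lower in all 3 PNMC libraries, and the other 8 genes overlapped.

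The heat shock factors differed widely in level. Hsf1, the main activator of the heat response, was at 92.5 and 89.4 in control libraries 1 and 2 and at 98.3, 76.1 and 88.8 in PNMC libraries 1, 2 and 3. The PNMC libraries lay on both sides of the controls, with means of 91.0 ± 2.21 (SD, n = 2) and 87.7 ± 11.1 (SD, n = 3). The log2 change was -0.059, with a 95% interval from -0.40 to 0.28 (limma adjusted p = 0.993).

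Hsf2, a relative of HSF1 that acts mainly in development and gamete formation, was low among the tested genes. It read 2.54 and 2.18 in the controls and 1.23, 1.41 and 1.07 with PNMC, so every PNMC value lay below both controls. The means were 2.36 ± 0.259 (SD, n = 2) and 1.24 ± 0.168 (SD, n = 3), and the ratio of the means was 0.524. The log2(value + 1) change of -0.59 (SE 0.367, 95% interval -1.38 to 0.20, limma adjusted p = 0.993) understates the ratio at such low values, and with a pseudocount of 0.1 it was -0.88 (limma adjusted p = 0.987). The interval is the widest of the 10 members, and 83.1% of tested genes had a higher mean level. Hsf1 over Hsf2 was 36.4 and 41.1 in the controls and 80.0, 54.0 and 82.6 after PNMC.

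The inducible HSP70 genes Hspa1a and Hspa1b encode nearly the same protein from neighbouring single-exon genes. Hspa1a was at 35.6 and 32.6 in the controls and at 40.9, 44.1 and 40.9 with PNMC. All 3 PNMC values lay above both controls, and the means were 34.1 ± 2.10 (SD, n = 2) and 41.9 ± 1.86 (SD, n = 3), the second 23.0% above the first. That difference did not pass the test (log2 change 0.29, SE 0.175, 95% interval -0.09 to 0.67, limma adjusted p = 0.993, unadjusted p = 0.119). Hspa1b was lower throughout, at 18.5 and 17.8 in the controls and 18.4, 21.3 and 17.6 after PNMC, and its groups overlapped (log2 change 0.066, 95% interval -0.39 to 0.52). Hspa1a exceeded Hspa1b by 1.93 and 1.84 times in the controls and by 2.22, 2.07 and 2.33 times after PNMC. This ratio rests on how reads of the 2 copies were divided: 62.3% of the 50-base windows of the Hspa1b transcript also occur in Hspa1a.

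The constitutive HSP70 gene Hspa8, whose product HSC70 is the housekeeping member of the family, was at 132 and 108 in the controls and 113, 120.5 and 126 with PNMC. All 3 PNMC values fell between the 2 controls, and the means were 120.0 ± 17.3 (SD, n = 2) and 119.8 ± 6.66 (SD, n = 3). Its log2 change was 0.0034, with a 95% interval from -0.31 to 0.32. Hspa14 encodes an HSP70 relative that works at the ribosome with the J-domain protein of Dnajc2. It was at 92.3 in control library 1 but at 60.5 in control library 2, and at 62.6, 63.1 and 54.3 with PNMC. The change depended on the control: it was a log2 change of -0.32 (SE 0.191, 95% interval -0.73 to 0.10, limma adjusted p = 0.993) over all libraries, -0.014 without control library 1 and -0.62 without control library 2 (limma adjusted p = 0.893).

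Of the HSP90 genes, Hsp90ab1 encodes the constitutive and Hsp90aa1 the more inducible form. Hsp90ab1 had the highest level of the members in every library, at 221 and 198 in the controls and 213, 207 and 219 after PNMC, and varied least, by 1.12 times from lowest to highest. Its log2 change was 0.027, with a 95% interval from -0.24 to 0.29. Hsp90aa1 was at 97.4 and 64.1 in the controls and 58.3, 74.5 and 82.5 after PNMC, so the groups overlapped. Its log2 change of -0.15 (95% interval -0.59 to 0.29) became 0.15 without control library 1 (limma adjusted p = 0.985). Hsp90ab1 exceeded Hsp90aa1 by between 2.27 and 3.65 times over the 5 libraries.

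For the mitochondrial chaperonin pair the PNMC change was smaller than the difference between the 2 controls. Hspd1 was at 47.6 and 59.1 in the controls and 61.9, 41.1 and 50.3 after PNMC (log2 change -0.072, 95% interval -0.50 to 0.355). Hspe1 was at 40.3 and 72.5 in the controls and 64.1, 58.7 and 56.8 after PNMC, so all 3 PNMC values fell between the controls. Its log2 change was 0.14 (95% interval -0.33 to 0.61) and became -0.27 without control library 1 (limma adjusted p = 0.981). Hspe1 over Hspd1 was 0.846 and 1.23 in the controls and 1.04, 1.43 and 1.13 after PNMC.

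The difference between the 2 controls was larger than the PNMC change in 6 of the 10 genes, the exceptions being Hspa1a, Hspa1b, Hsf1 and Hsf2. It was larger in 64.8% of all tested genes, so this share too was near the background. A difference between 2 single libraries varies more than a difference between group means, so it tends to be larger even without an effect. The share therefore does not measure how noisy the controls were. Control library 1 exceeded control library 2 by 0.60 log2 units in Hspa14 and by 0.60 in Hsp90aa1, and lay below it by 0.83 in Hspe1, where the ratio of the higher to the lower control was 1.80. For Hspa1a the controls differed by 0.12 log2 units. Across the 10 genes every 95% interval of the PNMC change included 0, and outside Hsf2 all bounds lay between -0.73 and 0.67.

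**Figure D2:**
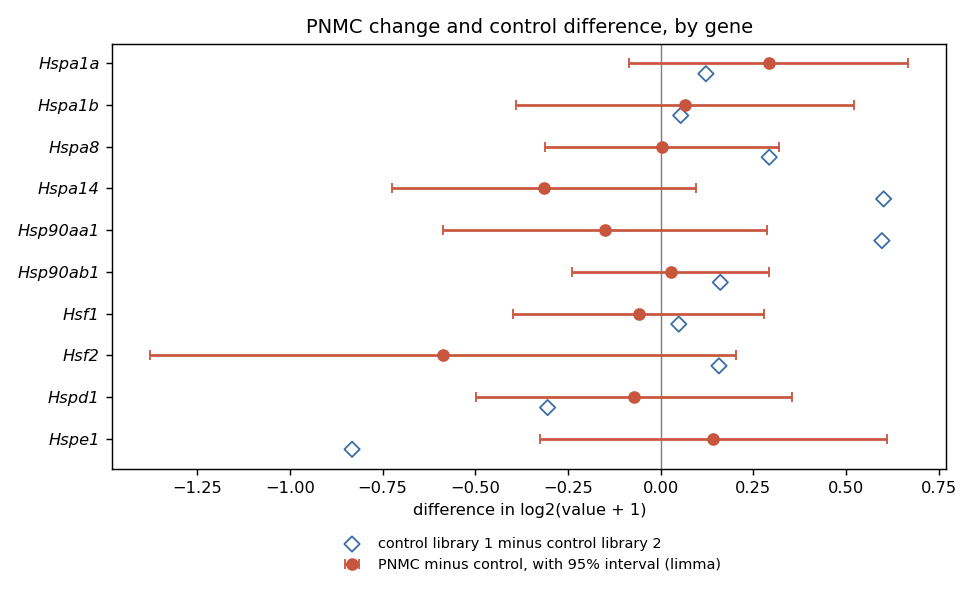
Difference in log2(value + 1) for each of the 10 genes: red points are PNMC minus control with limma's 95% interval (n = 3 and n = 2), and open blue diamonds are control library 1 minus control library 2. All red intervals include 0, and the diamonds of Hspa14 (0.60), Hsp90aa1 (0.60) and Hspe1 (-0.83) lie farther from 0 than their red points.

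By mean control value the order of the members was Hsp90ab1, Hspa8, Hsf1, Hsp90aa1, Hspa14, Hspe1, Hspd1, Hspa1a, Hspa1b and Hsf2. Hsp90ab1, Hspa8, Hspa1b and Hsf2 each held a place whose range over the 5 libraries did not meet that of a neighbour, whereas from Hsf1 down to Hspa1a each neighbouring pair overlapped in range. The sources used here do not say whether the deposited values are already per transcript length. Over 11300 tested genes the mean value had a Spearman correlation with the longest coding transcript's length of -0.141. For the value multiplied by that length it was 0.248. These correlations do not settle the scale, and if the values are already per length, the division below corrects for length a second time. Divided by the length of each gene's longest coding transcript, the control means still put Hsp90ab1 first and Hspa1a, Hspa1b and Hsf2 last, but Hspe1, whose transcript has only 774 bases, moved from place 6 to place 2.

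Several members share sequence with other genes, and the sources used here do not say how reads from shared sequence were counted. Of the 50-base windows in the longest coding transcript of GENCODE M21, 74.8% for Hspa8 also occurred in transcripts of other genes, 13 in number. All 13 are named as predicted genes, and none of these symbols was among the 32285 genes measured. The share of windows was 66.3% for Hspa1a, 58.5% for Hsp90aa1, 44.8% for Hspd1 and 44.8% for Hspe1. It was 15.6% for Hspa14, 4.49% for Hsp90ab1 and 0% for Hsf1 and Hsf2. In Hspe1, 8.69% of the windows matched Hspd1 transcripts, and Smart-seq2 libraries keep no strand information, so reads there cannot be assigned to 1 of the pair by strand.

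**Figure D3:**
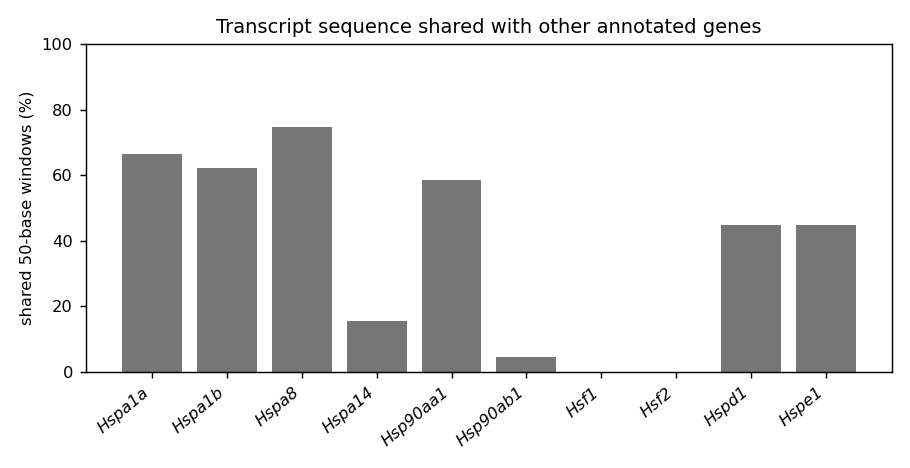
Percent of 50-base windows of each gene's longest coding transcript (bars, axis from 0 to 100) that also occur, on either strand, in a GENCODE M21 transcript of another gene. Hspa8 has the highest share at 74.8%, and Hsf1 and Hsf2 have 0%.

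Partners of these chaperones were read from 9 lists of 102 distinct genes, of which 87 were tested and 0 passed at an adjusted limma p under 0.05. Before adjustment 6 of the 87 had a limma p under 0.05, against 4.99% of all genes, and groups did not overlap in 19 (6 higher, 13 lower), or 21.8% against 19.9% of all genes. In mean, 39 of the 87 genes were higher and 48 lower, against 5487 and 7247 of all tested genes. The median log2 change over the 87 genes was -0.0535, against -0.0475 over all genes.

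Of the other HSP70 and HSP110 genes 7 of 8 were tested, with 2 higher and 5 lower in mean. Hspa4, an HSP110-type exchange factor, was at 9.52 and 8.64 in the controls and 8.07, 6.07 and 6.58 after PNMC (limma adjusted p = 0.993). Its relative Hspa4l was at 3.498 and 2.71 and at 6.34, 3.29 and 3.91, with overlapping groups. Of the J-domain genes 18 of 22 were tested, 10 higher and 8 lower. Dnajc9, a J-domain histone chaperone, was at 43.8 and 50.8 in the controls and 37.5, 36.8 and 29.4 after PNMC (log2 change -0.44, SE 0.188, limma adjusted p = 0.967), and the low gene Dnajc24 was at 0.515 and 0 and at 2.38, 1.86 and 0.729. All 7 BAG and exchange factor genes were tested, 4 higher and 3 lower. Hspbp1, a nucleotide exchange factor of HSP70, was at 8.92 and 5.47 in the controls and 1.26, 5.04 and 1.39 after PNMC (log2 change -1.33, SE 0.434, limma adjusted p = 0.967), and Bag2 was at 2.85 and 2.26 and at 0.708, 1.75 and 1.91.

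The HSP90 co-chaperones were all tested (17 genes, 8 higher and 9 lower). Cdc37, which brings kinases to HSP90, was at 8.41 and 11.8 in the controls and 3.66, 7.41 and 3.24 after PNMC, without overlap (log2 change -0.998, SE 0.341, limma adjusted p = 0.967). Stub1, a ubiquitin ligase for chaperone clients, was at 12.0 and 11.5 and at 10.2, 11.5 and 5.96. Of the 6 genes for other heat shock factors and HSF binding proteins only 3 were tested. Hsf5, known from male meiosis, was at 26.1 and 19.3 in the controls and 26.6, 23.5 and 21.3 after PNMC. The binding protein gene Hsbp1l1 stayed near 1 or below. Its relative Hsbp1, named after its values were seen, was at 73.9 and 80.5 in the controls and 74.7, 79.3 and 74.5 after PNMC (log2 change -0.019). Small heat shock protein genes were mostly at or near 0, with 4 of 10 at 0 in every library (Hspb2, Hspb7, Hspb9 and Cryab) and 3 tested. Hspb1, the most abundant of them, was at 23.9 and 23.2 in the controls and 40.6, 26.2 and 25.0 after PNMC (limma adjusted p = 0.993), with PNMC library 1 apart from the other 2, and Hspb6 was at 4.96 and 5.12 and at 4.69, 4.18 and 4.73.

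The cytosolic chaperonin TRiC and its partner prefoldin were all tested (15 genes, 6 higher and 9 lower). Pfdn2, a prefoldin subunit, was at 18.2 and 21.5 in the controls and 15.3, 10.9 and 12.5 after PNMC (log2 change -0.59, SE 0.234, limma adjusted p = 0.967), and Cct6b was at 2.07 and 1.74 and at 0.580, 1.79 and 0.663. All 14 other mitochondrial chaperone and matrix protease genes were tested, 6 higher and 8 lower. Clpp, the proteolytic subunit of the matrix protease ClpXP, had the smallest p of all 87 genes: it was at 10.5 and 9.75 in the controls and 5.52, 3.56 and 3.77 after PNMC (log2 change -1.09, SE 0.293, 95% interval -1.72 to -0.46, limma adjusted p = 0.866, unadjusted p = 0.0024). Dnajc28 was at 2.45 and 2.11 and at 0.960, 0.828 and 1.25. Of 12 further heat-inducible genes, which overlap the other lists, 11 were tested, 5 higher and 6 lower, with a median log2 change of -0.0535. Among them the ubiquitin gene Ubb was at 1226 and 1237 in the controls and 1116, 1222 and 1002 after PNMC, and Dnajb1, a J-domain target of HSF1 named after its values were seen, was at 114 and 104 and at 135, 115 and 115.

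**Figure D4:**
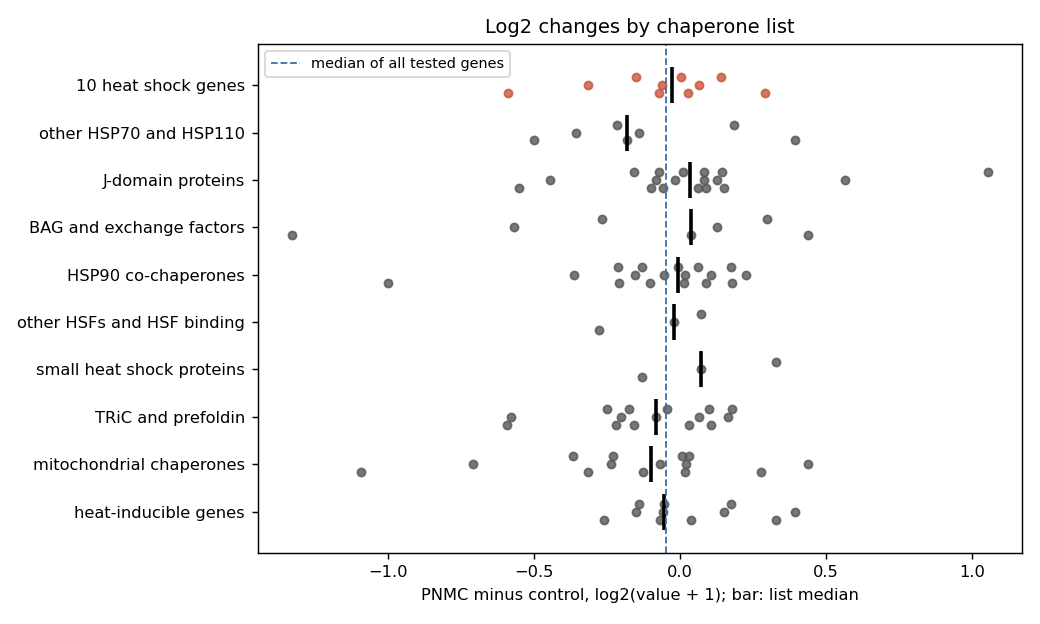
PNMC minus control in log2(value + 1) (horizontal axis) for each tested gene of the 10 heat shock genes (red) and of 9 chaperone lists (grey); black bars are list medians and the dashed line is the median of all tested genes (-0.0475). List medians run from -0.18 to 0.072, and no gene passed the adjusted threshold.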

How the data were processed

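RNA-seq was done on 3 PNMC and 2 control libraries of 2-cell embryos, made with Smart-seq2 from TRIzol-extracted RNA per the labels' protocols. Per the submitters' processing notes, GRCm39 was the build, and DESeq2 1.16.1, HISAT2 2.0.5, HTSeq and Trimmomatic were used. The authors deposited 1 table of normalised expression signal per gene symbol; the sources used here give neither its unit, its annotation nor its depth, so no counting intervals are given and no count test was run, although the design had allowed for counts. Columns were matched to samples by title.

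The 12734 genes with a signal of 1 or more in 2 or more libraries were transformed to log2(value + 1) and compared with limma 3.58.1 in R 4.3.3, with a variance trend and robust variances. P-values were adjusted by Benjamini-Hochberg over all tested genes, with a threshold of 0.05. The procedure was tested on simulated data with shifts larger than the changes of the members, in genes of higher level than Hsf2. That test does not cover changes as small as those seen here. Members and lists were chosen with earlier results of these data known. Genes named are the 10 members, from each list the 2 tested genes of lowest p, and any said to be chosen later. Promoter sequences are RefSeq's on GRCm38.p6. Alternatives are given in the closing section. One further row, outside the lists, is not reported here.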

Additional observations from a re-analysis of the deposited data

How the results depend on the processing

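With 7 other settings and with each library left out in turn, 0 of the heat shock genes and 0 of the listed partner genes passed limma's adjusted threshold. Over all genes the count was 0 in each of them except without PNMC replicate 1, so it ranged from 0 to 1 with a library left out. At an unadjusted p under 0.05 the count of heat shock genes was 1 without the variance trend and robust variances (Hsf2), 2 without control replicate 2 (Hspa14 and Hspe1), and 0 in the remaining settings. The signs for Hspa1a, Hspa14 and Hsf2 held in every setting that tested them; the stricter filter left Hsf2 out. The other 7 reversed at least once, and the cause was not tested. Median scaling gave 0.026 for Hsf1 and 0.013 for Hspd1 and moved the median of all genes from -0.0475 to 0.0271. With 1 library left out, the log2 change ranged from -0.62 to -0.014 for Hspa14, from -0.45 to 0.15 for Hsp90aa1 and from -0.27 to 0.56 for Hspe1 (Hsp90aa1 positive and Hspe1 negative without control replicate 1), from -0.14 to 0.15 for Hspa8 (negative without control replicate 2 or PNMC replicate 2 or 3), from -0.054 to 0.11 for Hsp90ab1 (negative without control replicate 2), from -0.22 to 0.081 for Hspd1 (positive without control replicate 2 or PNMC replicate 2), from -0.012 to 0.12 for Hspa1b and from -0.14 to 0.038 for Hsf1 (reversed without PNMC replicate 2). Under the stricter filter 210 of 5675 genes and 2 of 57 partner genes had an unadjusted p under 0.05, against 636 of 12734 and 6 of 87. The edgeR and DESeq2 alternatives planned for counts were not run. The labels do not say whether same-numbered libraries shared more than a number. Correlations of their deviations were -0.0585 and -0.0433, which cannot show whether they did. The replicate block gave 0 calls and -0.034 for Hspa8. It is not a separate check of the members: PNMC replicate 3 has no partner in it, so each log2 change equalled that without PNMC replicate 3. Depth is unknown, so what it limits could not be computed.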

Other observations

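Several partner genes differed between the 2 controls or were abundant in both groups. Bag5, a BAG-family co-chaperone of HSP70, was at 134 and 57.3 in the controls and 109, 109 and 107 with PNMC, a ratio of 2.34 between the controls. Stip1, which links HSP70 to HSP90, was at 244 and 173 in the controls and 228, 226 and 242 after PNMC. Hsph1, an HSP110 gene, was at 50.1 and 32.2 and at 30.7, 40.4 and 38.8. Hspa2, an HSP70 gene known from male germ cells, was read in every library, at 64.7 and 62.9 in the controls and 59.0, 77.1 and 84.3 after PNMC. Ahsa1, an activator of the HSP90 ATPase, was at 411 and 415 and at 424, 392 and 436. These genes were chosen after their values were seen, and none passed limma's adjusted threshold.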
